A study of Mus musculus with 5 samples.

Results

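The genes described here are 8 cytokine genes of inflammation that tumor myeloid cells transcribe, Il1a, Il1b, Il6, Tnf, Il18, and Osm with the antagonist genes Il1rn and Il18bp. They were taken by symbol from the 33696 genes of the scRNA-Seq matrices of MC38 tumors, where all 8 were found, and they were followed by cell class and by treatment. IL-1α and IL-1β signal through the same receptor, and the IL-1 receptor antagonist, encoded by Il1rn, occupies that receptor without activating it. IL-1β and IL-18 are made as precursors that caspase-1 cleaves in inflammasomes, so a transcript level is not a level of active cytokine. IL-18 binding protein, encoded by Il18bp, is secreted and captures IL-18, and in many cells it is induced by IFN-γ. TNF acts through TNFR1 and TNFR2, whereas IL-6 and oncostatin M (Osm) signal through receptors that contain gp130 and through JAK1. Monocytes, macrophages, and neutrophils are the best known sources of IL-1β and TNF in tumors, while fibroblasts and other stromal cells are known as a source of IL-6.

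Male C57BL/6J mice aged 8 to 10 weeks bore subcutaneous tumors of MC38, a mouse colon cancer line. On days 3, 6, and 9 they were injected either with isotype control antibodies or with checkpoint inhibitors (CPI, which here means blocking antibodies to PD-1 and CTLA4), and then received the JAK1-selective inhibitor ABT-317 (20 mg/kg) or its vehicle on day 12, before harvest on day 15. This gave 4 treatments, named isotype, isotype + ABT-317, CPI, and CPI + ABT-317. The study's methods for scRNA-Seq count days from implantation, while its MC38 figure counts them from enrollment at a set tumor volume. The study names at least 3 mice per group for these tumors. Live CD45+ and CD45- tumor cells were sorted, labeled with hashtag antibodies that name the treatment, mixed in equal parts, and loaded as 2 droplet reactions of 60000 cells, so the sort sets the balance of immune and other cells. Hashtags mark no single mouse, and no source says if the mice of the reactions are the same ones. Each p-value between treatments thus rests on the spread between 2 sums per treatment, shared over the arms of a fit, which may be technical. Between cell classes, a p-value rests on how the class difference varied over the sums of treatment and reaction.

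The promoters of the members were searched for motifs in RefSeq sequence, as a description. A promoter is here the 250 bases before and 50 after a transcription start, on GRCm38.p6, and 7 of the 8 genes had an entry. Motifs of NF-kB, of activated STAT dimers (GAS, TTCNNNGAA), of AP-1 (TGANTCA), and of the interferon response element ISRE were searched on both strands, and 8.46%, 8.30%, 7.81%, and 3.44% of 32851 promoters held them. Il6 held NF-kB and AP-1 letters, and Il1a and the first listed start of Il1rn held AP-1 letters. None of these letters was in the windows of Il1b, Tnf, Il18, and Il18bp. The 3 windows with a match are shown 5′ to 3′ on the gene's strand, with the matched letters in capitals, at chr5:30012864-30013163 (Il6, plus strand), chr2:129309923-129310222 (Il1a, minus strand), and chr2:24336610-24336909 (Il1rn, plus strand).
Il6: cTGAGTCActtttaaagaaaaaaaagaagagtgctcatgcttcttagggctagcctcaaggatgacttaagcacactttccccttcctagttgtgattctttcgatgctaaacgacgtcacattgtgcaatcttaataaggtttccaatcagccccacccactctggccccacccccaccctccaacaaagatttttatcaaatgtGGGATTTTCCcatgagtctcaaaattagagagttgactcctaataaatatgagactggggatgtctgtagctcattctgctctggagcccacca
Il1a: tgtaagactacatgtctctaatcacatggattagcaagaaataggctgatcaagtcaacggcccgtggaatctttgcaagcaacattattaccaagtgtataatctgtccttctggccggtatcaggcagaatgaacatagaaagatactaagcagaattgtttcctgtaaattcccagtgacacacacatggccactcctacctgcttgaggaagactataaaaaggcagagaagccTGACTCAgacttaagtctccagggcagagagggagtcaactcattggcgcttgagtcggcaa
Il1rn: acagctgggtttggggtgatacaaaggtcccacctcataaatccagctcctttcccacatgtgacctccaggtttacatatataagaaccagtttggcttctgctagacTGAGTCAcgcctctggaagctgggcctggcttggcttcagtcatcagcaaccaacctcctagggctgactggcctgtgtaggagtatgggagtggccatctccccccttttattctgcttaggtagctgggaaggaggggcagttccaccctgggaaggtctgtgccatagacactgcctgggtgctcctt
In the Il6 window the NF-kB letters begin at base 207 and the AP-1 letters at base 2, and the AP-1 letters begin at base 239 in Il1a and at base 110 in Il1rn. A match in these letters is a description and not a shown binding site.

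The reactions held 37774 and 27582 barcodes with 435031691 and 377184807 gene UMIs (unique molecular identifiers, each a captured RNA molecule), and 1416 barcode sequences occurred in both. Before filters, 19662 and 10463 barcodes of the 2 reactions carried none or several hashtags and were left out of the main results. After filters, 30105 barcodes carried exactly 1 hashtag. They were grouped into classes from marker lists, with the members kept out of the clustering. Macrophage-like (7919 barcodes), monocyte-like (535), cDC2-like (188), neutrophil-like (98), and mreg DC–like (33) classes were named, next to T cell–like (1026), fibroblast or pericyte-like (1680 in a Col1a1 and 206 in an Rgs5 cluster), and endothelial-like (101) classes and 1522 unnamed myeloid barcodes. The remaining 16797 barcodes met no marker list and held little Ptprc, the CD45 gene, and their levels serve as background. Levels are in CPM, the UMIs of a gene per 1000000 UMIs of all genes, with UMIs summed per class, treatment, and reaction. In such sums, fewer transcribing cells and less RNA per cell cannot be told apart. Barcodes were spread unevenly over treatments, with 3229 and 3655 macrophage-like barcodes in the isotype sums and 15 and 12 in the CPI sums, and with 196 and 182 monocyte-like barcodes in the CPI sums and 2 and 2 in the isotype + ABT-317 sums. The CPI sums also held 519 and 411 T cell–like and 948 and 746 fibroblast or pericyte-like barcodes, but only 87 and 81 of the unnamed non-myeloid ones. Levels over all barcodes of a class, background included, therefore compare different mixes of treatments, and class and treatment cannot be told apart in them.

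Il1b was the most abundant member in all 5 named myeloid classes. Over all barcodes of a class, its level was 5328 CPM (exact Poisson 95% interval 4915 to 5767) in neutrophil-like, 3350 CPM (3249 to 3454) in monocyte-like, 2465 CPM (2347 to 2587) in cDC2-like, and 1734 CPM (1719 to 1749) in macrophage-like cells. These intervals cover counting error only, and over sums of at least 20 barcodes the monocyte-like level ran from 1839 to 6593 CPM (median 5041, n = 6), a range that holds both cDC2-like sums (2261 and 3004 CPM) and the neutrophil-like sum (5849 CPM). The macrophage-like sums, 1396 to 1894 CPM (median 1544, n = 6), lay below both cDC2-like sums. The background was 29.1 CPM in the unnamed non-myeloid barcodes, 60.8 CPM in the Col1a1 cluster of fibroblast or pericyte-like cells, and 224 CPM in T cell–like cells. Barcodes were also thinned to 1000 UMIs, and here and below those with fewer UMIs were left out of thinned values. This kept 7774 of 7919 macrophage-like, 468 of 535 monocyte-like, 603 of 1026 T cell–like, and 16740 of 16797 unnamed non-myeloid barcodes. Of those kept, 52.1% of macrophage-like and 58.1% of monocyte-like barcodes held an Il1b UMI, against 13.8% of T cell–like and 4.40% of unnamed non-myeloid barcodes. Unthinned and over all barcodes, these shares were 66.7%, 60.0%, 16.0%, and 21.9%, at median depths of 3386, 2005, 1071, and 18898 UMIs.

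Tnf, the other major product of activated macrophages, was at similar levels in macrophage-like and monocyte-like cells when all barcodes of a class were pooled. It stood at 831 CPM (821 to 842) and 802 CPM (753 to 853), respectively, and the ranges over sums overlapped (614 to 940 and 503 to 1627 CPM). Neutrophil-like cells held 1408 CPM from 162 UMIs over all barcodes. Their only sum of at least 20 barcodes was at 704 CPM, within both of these ranges. T cell–like sums ran from 202 to 695 CPM (median 328, n = 4), a range that holds 1 of the 2 cDC2-like sums (158 and 257 CPM). Tnf UMIs were thus also found in this non-myeloid class. However, T cell–like barcodes held the macrophage markers together at 3049 CPM, next to T cell markers at 3532 CPM. The class may thus hold other cells or their RNA, and the part of this in its Tnf level was not tested.

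Il1a was lower than Il1b in each named class, at 469 CPM in neutrophil-like, 328 CPM in monocyte-like, 177 CPM in macrophage-like, and 43.7 CPM in cDC2-like cells. Over sums of at least 20 barcodes, however, Il1a was at 97.1 CPM in the neutrophil-like sum, below the monocyte-like median (395 CPM, n = 6) and all macrophage-like sums (155 to 282 CPM). No UMI of Il1a was found in the 33 mreg DC–like or the 101 endothelial-like barcodes. Osm was at 365, 279, 154, and 67.9 CPM over all barcodes of these 4 classes. Both genes were at or below 2.75 CPM in the unnamed non-myeloid barcodes.

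Il6 was found in stromal as well as myeloid classes. It was at 56.0 CPM (41.0 to 74.7) in the Rgs5 cluster and 26.9 CPM (23.3 to 30.8) in the Col1a1 cluster of fibroblast or pericyte-like cells, at 25.4 CPM in endothelial-like cells, and at 4.49 CPM (3.76 to 5.32) in macrophage-like cells. Monocyte-like cells held 37 Il6 UMIs (interval 21.1 to 41.4 CPM), with sums from 0 to 68.9 CPM (median 40.3, n = 6) that overlap those of the Col1a1 cluster (0 to 114 CPM, median 26.0, n = 7). In cDC2-like cells both isotype sums held no Il6 UMI, which allows up to 11.3 CPM in each by a limit of 3 counts.

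Il18 was low throughout, and over all barcodes it was not highest in a myeloid class, as Il1a, Il1b, Tnf, and Osm were. It was at 39.3 CPM (34.9 to 44.0) in the Col1a1 cluster, 22.7 CPM (15.1 to 32.8) in monocyte-like, and 20.3 CPM (18.7 to 22.0) in macrophage-like cells, over all barcodes. Over sums the order was different, with medians of 13.1 CPM in the Col1a1 cluster (9.50 to 47.8, n = 7), 23.3 CPM in monocyte-like (17.4 to 33.3, n = 6), and 19.9 CPM in macrophage-like cells (15.7 to 22.9, n = 6). The Col1a1 cluster was highest in the CPI sums (40.2 and 47.8 CPM), which hold 862 and 677 of its 1680 barcodes. The unnamed non-myeloid barcodes held 1.82 CPM.

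The antagonist genes differed from each other. Il1rn ran with the IL-1 genes, at 1434 CPM (1224 to 1670) in neutrophil-like, 730 CPM (683 to 779) in monocyte-like, and 259 CPM (254 to 265) in macrophage-like cells, but at 24.1 CPM (13.8 to 39.2) in cDC2-like cells, whose Il1b was above that of macrophage-like cells. Il18bp was lower, at 45.4 CPM in monocyte-like, 35.5 CPM in macrophage-like, and 18.1 CPM in cDC2-like cells and 5.11 CPM in the unnamed non-myeloid barcodes. Its sums in monocyte-like cells, 10.7 to 120.0 CPM, spread around those of macrophage-like cells (27.4 to 104 CPM).

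**Figure D1:**
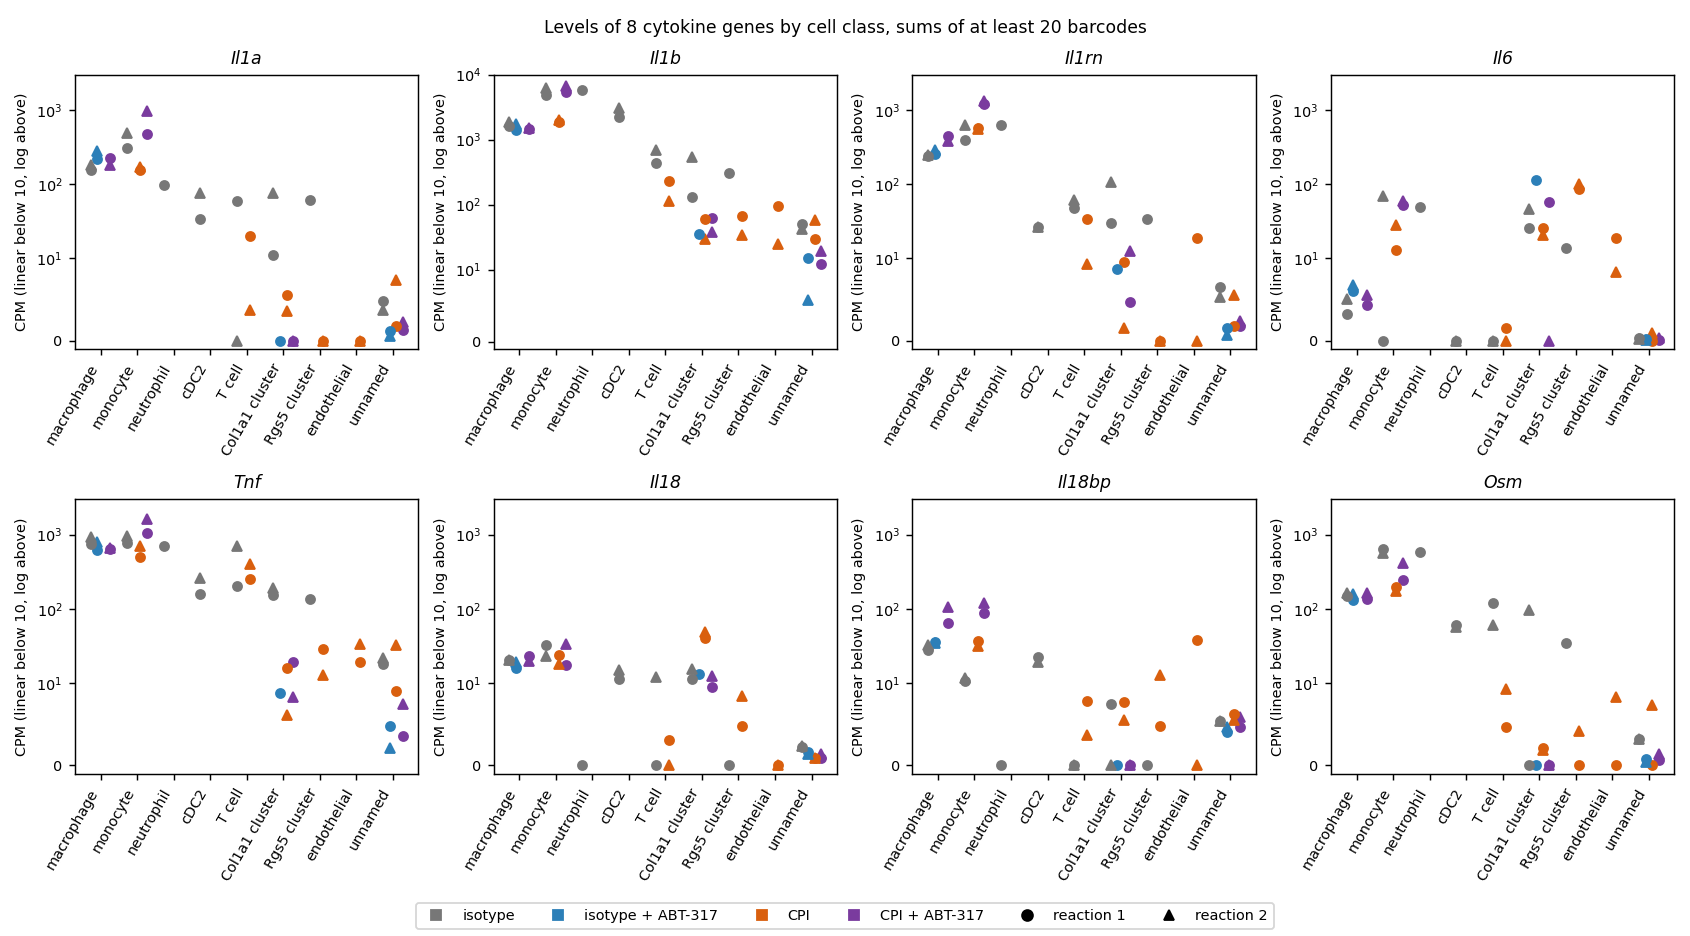
Level of each of the 8 genes in CPM (linear below 10 and logarithmic above) for each class, where every point is a sum of at least 20 barcodes of 1 treatment (color) and reaction (circle or triangle), and "unnamed" stands for the unnamed non-myeloid barcodes. The medians of Il1b, Tnf, Il1a, Il1rn, and Osm in the macrophage, monocyte, and neutrophil classes lie above those of the non-myeloid classes. In the cDC2 class, the sums of Tnf, Il1rn, and Osm lie below the highest T cell sum of each gene. Il6 sums reach 114 CPM in the Col1a1 cluster and 101 CPM in the Rgs5 cluster of fibroblast or pericyte-like cells, and Il18 is low in the Rgs5 cluster.

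Classes were compared within treatment and reaction, in isotype and CPI + ABT-317 sums, by edgeR's quasi-likelihood test, with p adjusted by the Benjamini-Hochberg method over all genes tested and a threshold of 0.05. In monocyte-like against macrophage-like cells, 6 of the 7 members tested were higher and none was lower, where 7.97% of the 4528 genes tested were higher. The log2 differences were 1.85 ± 0.11 (SE) for Il1b, 1.60 ± 0.20 for Il1a, 1.62 ± 0.17 for Osm, 1.42 ± 0.15 for Il1rn, 3.27 ± 0.62 for Il6, and 0.60 ± 0.17 for Tnf (adjusted p from 3.7e-11 to 0.022). Il18bp differed by 0.11 ± 0.30 (adjusted p = 0.88), and Il18 was not tested for want of counts. The Tnf call was lost in 7 of 12 alternatives. Among these were the fits without reaction 1 (0.75, adjusted p = 0.17) and without reaction 2 (0.40, adjusted p = 0.32), and DESeq2 (adjusted p = 0.095). The others were both rules of a hashtag lead, sums of at least 10 barcodes, and barcodes thinned to 1000 UMIs. Over all fits the Tnf difference ran from 0.18 to 0.75, with adjusted p up to 0.73. Of the 6 genes, Il1a, Il1b, Il1rn, and Osm passed in all 12 alternatives, and Il6 in the 8 in which it was tested. The Il6 difference rests on few counts. All monocyte-like barcodes, those of CPI included, held 37 Il6 UMIs, and the isotype sum of reaction 1 held none. The CPI sums, with 15 and 12 macrophage-like barcodes, did not enter the main fit. There Il1b was at 1839 and 2024 CPM in monocyte-like and 1695 and 1394 CPM in macrophage-like cells. Il1rn was at 574 and 560 against 503 and 393 CPM, and Tnf at 503 and 697 against 768 and 393 CPM. The differences above are thus those of the isotype and CPI + ABT-317 arms.

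cDC2-like cells had a different pattern, with 1 member higher and 4 lower than in macrophage-like cells, where 23.9% of the 4528 genes passed in either direction. Il1b was higher by 0.75 ± 0.13 (SE, log2, adjusted p = 0.00018). Il1rn was lower by 3.04 on the log2 scale (log2 difference -3.04 ± 0.34, adjusted p = 5.05e-07), as were Tnf (-1.79 ± 0.25), Il1a (-1.49 ± 0.36), and Osm (-1.44 ± 0.28). Il18bp did not pass (-0.44 ± 0.45, adjusted p = 0.54), nor did Il6, which had no UMI in the cDC2-like sums. Only 2 isotype sums of cDC2-like cells entered. In them the cDC2 markers together were at 932 and 1144 CPM, the cDC1 markers at 954 and 913 CPM, and the macrophage markers at 3816 and 4970 CPM. The class may thus hold other cells or their RNA, and the part of this in the differences was not tested. With sums of at least 10 barcodes the Il1b difference was 0.69 (adjusted p = 0.056), and with hashtags called by their lead over background it was 0.08 (adjusted p = 0.93). With barcodes thinned to 1000 UMIs the Il1a difference was -1.25 (adjusted p = 0.19).

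Neutrophil-like cells could be compared only in sums of at least 10 barcodes, and the median of all 1951 genes tested shifted by -0.20 (log2). Of 5 members tested, 3 were higher than in macrophage-like cells, where 11.5% of genes were higher. Il1rn was higher by 2.09 ± 0.29 (SE, log2, adjusted p = 1.3e-06), Il1b by 1.502 ± 0.265 (adjusted p = 7.6e-05), and Osm by 1.25 ± 0.36 (adjusted p = 0.012), while Tnf (0.73 ± 0.30, adjusted p = 0.081) and Il1a (1.05 ± 0.47, adjusted p = 0.10) did not pass. Without reaction 1 the differences of Il1b (0.89, adjusted p = 0.40) and Osm (0.65, adjusted p = 0.61) did not pass either. Neutrophil-like levels varied over the 5 sums. Il1rn was at 631 and 445 CPM in the isotype sums, 2026 CPM in the CPI sum of reaction 1, and 2637 and 5178 CPM in the CPI + ABT-317 sums, from 14 to 39 UMIs each. Il1b showed no such split, with 5849 and 3880 CPM, 6077 CPM, and 3369 and 6240 CPM in the same sums. The macrophage markers in these sums were at 9998 and 20228 CPM with isotype, 2152 CPM with CPI, and 2417 and 398 CPM with CPI + ABT-317, with 0 to 10 of the 12 at 0, and the neutrophil markers at 27180 and 30373, 17853, and 13549 and 20181 CPM. These differences between treatments of neutrophil-like cells, and the part of the marker levels in them, were not tested.

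Macrophage-like cells were not uniform. They fell into 6 sub-clusters, of which the 5 shown are named here by 2 of their leading genes, Cxcl9 and C1qa (3315 barcodes), Cxcl1 and Cd14 (1912), the cycling genes Stmn1 and Birc5 (1304), Hmox1 and Mmp12 (1039), and the interferon-induced genes Ifit3 and Mx1 (168). The Cxcl1 and Cd14 sub-cluster held the most Il1b, with sums from 2193 to 3777 CPM (median 2874, n = 6), and did not overlap the Cxcl9 and C1qa sub-cluster, at 554 to 1162 CPM (median 838, n = 6). The same pair differed in Il1a (172 to 495 against 52.3 to 86.0 CPM), Tnf (716 to 1574 against 306 to 476 CPM), Il1rn (448 to 607 against 51.8 to 249 CPM), and Osm (185 to 339 against 94.6 to 115 CPM), again without overlap. The Hmox1 and Mmp12 sub-cluster was high in Il1rn (362 to 705 CPM) and in Il1a (199 to 509 CPM) but not in Osm (96.6 to 209 CPM). Il18 and Il18bp followed another order, and the Ifit3 and Mx1 sub-cluster held the highest median of each, with 43.9 and 66.3 CPM of Il18 and 51.2 and 86.7 CPM of Il18bp in its 2 sums, both from isotype. Neither was above every sum of the others, since Il18 reached 48.3 CPM in the Cxcl1 and Cd14 sub-cluster and Il18bp ran from 17.3 to 170 CPM in the Cxcl9 and C1qa sub-cluster. Sub-clusters came from the same cells and were formed by their expression, so these levels are a description without a test. The share of all genes without overlap between sub-clusters was not counted, so the lack of overlap does not set the members apart from other genes.

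**Figure D2:**
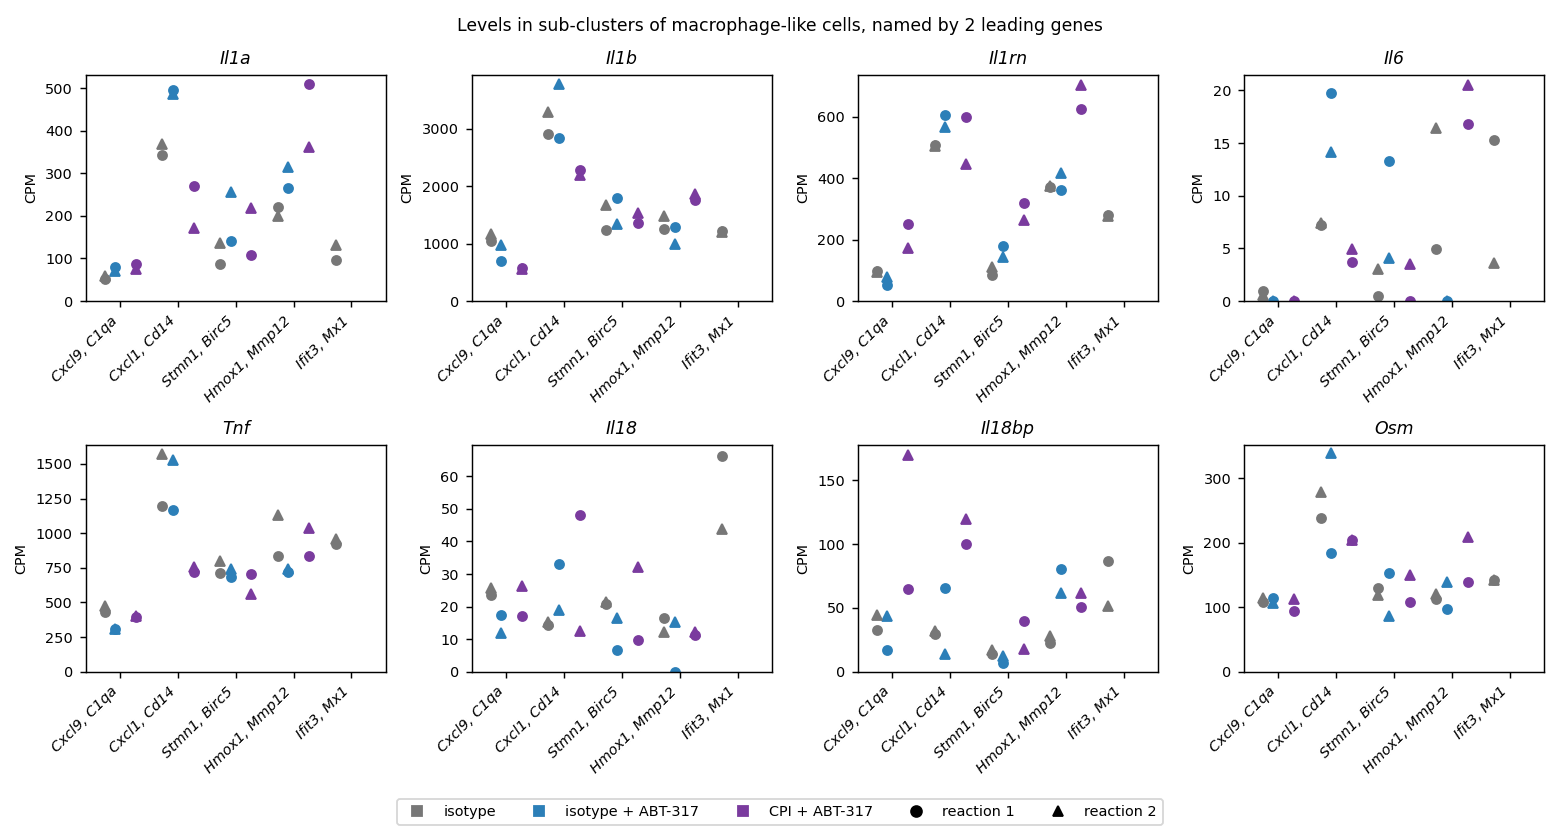
Level in CPM of each gene in 5 sub-clusters of macrophage-like cells, named by 2 leading genes, where a point is a sum of at least 20 barcodes of 1 treatment (color) and reaction (circle or triangle). The Cxcl1 and Cd14 sub-cluster has the highest median for Il1b, Tnf, and Osm, and the purple CPI + ABT-317 points lie above the blue isotype + ABT-317 points for Il1rn in the Cxcl9, Stmn1, and Hmox1 sub-clusters. The share of all genes with such a separation was not counted. No CPI sum of a sub-cluster reached 20 barcodes.

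Isotype and CPI, with vehicle in both, were compared in monocyte-like cells. The cells of this class also differed in markers between the arms. The 10 monocyte markers together were at 1984 and 2996 CPM with isotype and 705 and 874 CPM with CPI. The comparison is thus one of the class as it was found in each arm, and the part of its makeup is taken up below. Il1b, Il1a, and Osm were lower under CPI, and Il1rn and Tnf did not pass the test. Il1b was at 4761 and 6153 CPM in the isotype sums of reactions 1 and 2 and at 1839 and 2024 CPM in the CPI sums. Osm was at 643 and 562 CPM with isotype and 196 and 174 CPM with CPI, and Il1a at 311 and 494 CPM and 155 and 171 CPM. The CPI sums lay below both isotype sums for all 3 genes. Il1rn was at 397 and 620 CPM with isotype and 574 and 560 CPM with CPI, and Tnf at 772 and 964 CPM and 503 and 697 CPM. Of 6 members tested, 3 were lower and none higher, where 5.02% of the 2313 genes tested were lower. The log2 fold changes were -1.49 ± 0.21 (SE) for Il1b (adjusted p = 0.00073), -1.69 ± 0.27 for Osm (adjusted p = 0.0017), and -1.29 ± 0.36 for Il1a (adjusted p = 0.036), against 0.17 ± 0.26 for Il1rn (adjusted p = 0.76) and -0.52 ± 0.27 for Tnf (adjusted p = 0.24). Il18bp had 1 UMI in each isotype sum and 14 and 12 in the CPI sums (1.57 ± 0.92, adjusted p = 0.31). The Il1a call was lost without any 1 of the 4 isotype and CPI sums and at a Leiden resolution of 1. It was also lost without doublet-like barcodes (-1.06, adjusted p = 0.096). The Il1a fold change was -0.88 without isotype replicate 2 and -1.63 without isotype replicate 1. It was -1.15 without CPI replicate 1 and -1.35 without CPI replicate 2. With barcodes thinned to 1000 UMIs the Il1a fold change was 0.14 (log2, adjusted p = 0.91).

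With ABT-317 after CPI, monocyte-like cells held higher levels of Il1a, Il1b, Tnf, and both antagonist genes than with CPI alone. Il1b was at 5321 CPM (4908 to 5760) and 6593 CPM (6189 to 7017) in the CPI + ABT-317 sums, against 1839 CPM (1706 to 1980) and 2024 CPM (1885 to 2172) with CPI alone. Il1a was at 478 and 960.0 CPM, Il1rn at 1217 and 1313 CPM, and Tnf at 1061 and 1627 CPM, each above both of its CPI sums given above. Il18bp was at 86.9 and 120.0 CPM from 10 and 18 UMIs, against 36.7 and 31.1 CPM with CPI. Osm was at 243 and 413 CPM, above both CPI sums but below both isotype sums. Of 6 members tested, 5 were higher and none lower, where 7.13% of genes were higher. The log2 fold changes were 2.20 ± 0.32 (SE) for Il1a (adjusted p = 0.00053), 1.66 ± 0.21 for Il1b (adjusted p = 0.00020), 1.21 ± 0.26 for Tnf (adjusted p = 0.0067), 1.20 ± 0.23 for Il1rn (adjusted p = 0.0036), and 1.65 ± 0.48 for Il18bp (adjusted p = 0.038). Osm, at 0.89 ± 0.28 (adjusted p = 0.052), passed with the reaction as a block (0.89 ± 0.26, adjusted p = 0.011) and without CPI + ABT-317 replicate 1 (1.23, adjusted p = 0.0057), but not without CPI + ABT-317 replicate 2 (0.36, adjusted p = 0.65). Il6 was too low to be tested, with 6 and 9 UMIs in the CPI + ABT-317 sums (52.2 and 60.0 CPM) and 5 and 11 in the CPI sums (13.1 and 28.5 CPM). Il18bp did not pass in DESeq2 (1.63, adjusted p = 0.30) or when any CPI or CPI + ABT-317 sum was left out. Its fold change was 1.31 without CPI + ABT-317 replicate 2 and 1.88 without CPI + ABT-317 replicate 1. It was 1.72 and 1.51 without CPI replicates 1 and 2. Tnf gave 0.79 (adjusted p = 0.076) without CPI + ABT-317 replicate 2 and 0.95 (adjusted p = 0.10) without CPI replicate 1.

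The monocyte-like cells of CPI were also the least monocyte-like by their markers. Of these barcodes, 6.12% and 6.59% held a UMI of Ly6c2, the gene of the inflammatory monocyte surface marker Ly6C, against 28.9% and 51.5% with isotype and 42.9% and 31.9% with CPI + ABT-317. The CPI sums were again the lowest after thinning to 1000 UMIs (4.73% and 4.11%, 21.1% and 37.5%, and 31.4% and 18.2%). All 10 genes of the monocyte marker list together were at 705 and 874 CPM with CPI, 1984 and 2996 CPM with isotype, and 2313 and 2040 CPM with CPI + ABT-317. The 12 macrophage markers moved the other way, at 18708 and 21323 CPM, 12943 and 12948 CPM, and 11225 and 16680 CPM. The 10 neutrophil markers were at 207 and 166 CPM, 461 and 333 CPM, and 713 and 393 CPM, and at most 6 of them were at 0 in a sum. Median UMIs per barcode were 1643 and 1827.5, 2320.5 and 2363, and 3092 and 2632. In macrophage-like sums of at least 20 barcodes, the macrophage markers ran from 20051 to 31562 CPM and the monocyte markers from 180 to 242 CPM. The monocyte-like CPI sum of reaction 2 lay within this range of macrophage markers, while both CPI sums were above that of monocyte markers. The class may thus hold macrophages under CPI, and their share was not tested. The part of the marker and depth differences between arms in the cytokine levels was not tested directly. Both comparisons were repeated in barcodes with a Ly6c2 UMI, and that of CPI + ABT-317 with CPI also in barcodes without one.

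In the 11 to 17 barcodes per sum with a Ly6c2 UMI, Il1b was at 5342 and 3949 CPM with isotype, 4157 and 3721 CPM with CPI, and 5117 and 6245 CPM with CPI + ABT-317. These levels overlap between isotype and CPI. None of 5 members passed between CPI + ABT-317 and CPI there (8 of 858 genes did, and 74 had an unadjusted p under 0.05), with log2 fold changes of 0.48 ± 0.28 (SE) for Il1b, 0.15 ± 0.52 for Il1a, -0.01 ± 0.38 for Il1rn, -0.65 ± 0.54 for Tnf, and 0.55 ± 0.54 for Osm. Between CPI and isotype, Osm was lower (-1.90 ± 0.50, adjusted p = 0.035, from 868 and 701 to 204 and 183 CPM), and Il1b (-0.12 ± 0.28), Il1a (0.61 ± 0.58), and Tnf (0.01 ± 0.53) did not pass. Il1rn was at 234 and 397 CPM with isotype and 734 and 890 CPM with CPI (1.45 ± 0.44, adjusted p = 0.074). In barcodes without a Ly6c2 UMI the difference between CPI + ABT-317 and CPI was as large as before, with Il1a (2.83 ± 0.29), Il1b (1.90 ± 0.20), Tnf (1.81 ± 0.23), and Il1rn (1.62 ± 0.21) higher among 7 members tested (adjusted p from 0.00060 to 0.0017). Osm (1.08 ± 0.28, adjusted p = 0.059), Il6 (2.11 ± 0.58, adjusted p = 0.067), and Il18bp (1.23 ± 0.49, adjusted p = 0.21) did not pass. There Il1b was at 1680 and 1807 CPM with CPI and 5489 and 6810 CPM with CPI + ABT-317. The isotype sums without a Ly6c2 UMI, of 27 and 16 barcodes, held Il1b at 4486 and 8280 CPM and Osm at 537 and 429 CPM, above the CPI sums (Osm 196 and 173 CPM). This difference between isotype and CPI was not tested. Whether the fold changes of barcodes with and without a Ly6c2 UMI differ was not tested. Of the calls in monocyte-like cells, lower Osm under CPI was the only one that was also made in barcodes with a Ly6c2 UMI.

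**Figure D3:**
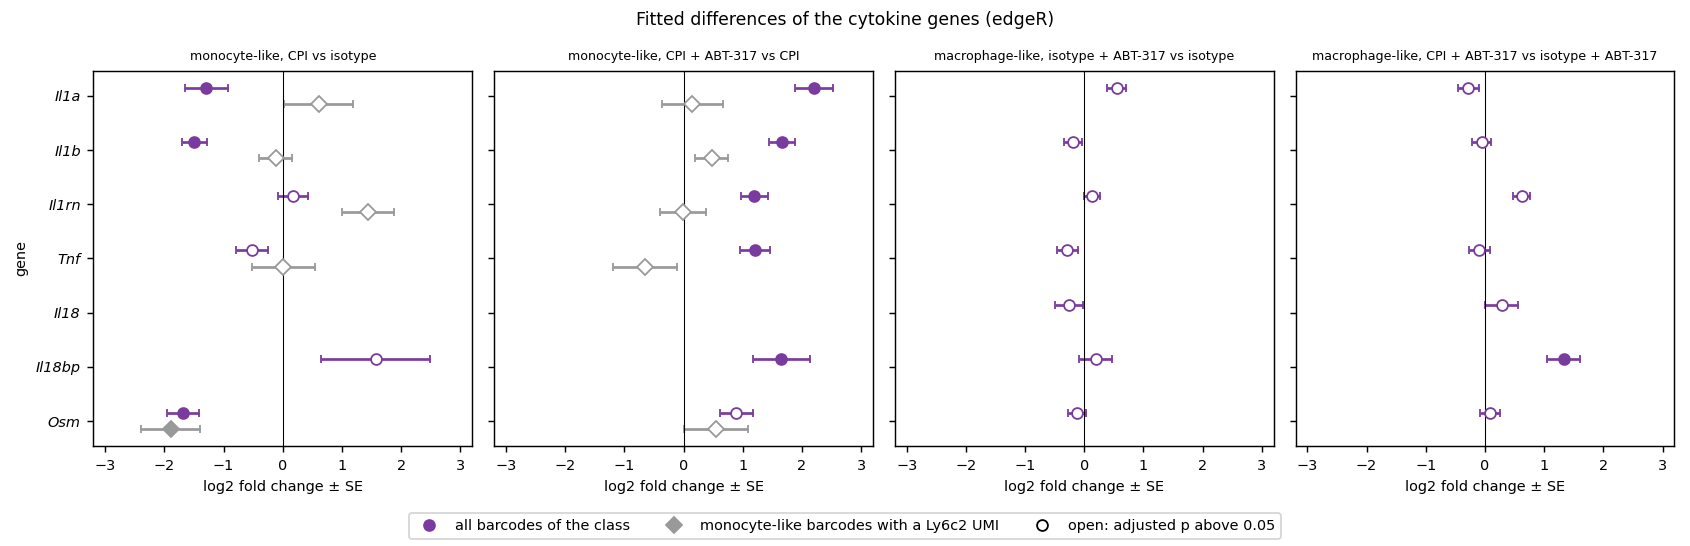
Fitted log2 fold change ± SE (edgeR) of each gene in 4 comparisons, with Il6 left out for want of counts, where filled symbols passed an adjusted p of 0.05 and gray diamonds are monocyte-like barcodes with a Ly6c2 UMI. In monocyte-like cells Il1b falls by 1.49 with CPI and is 1.66 higher with CPI + ABT-317 than with CPI, the gray diamonds lie nearer to 0 except for Osm and Il1rn in the comparison of CPI with isotype, and in macrophage-like cells Il18bp alone is filled.

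In macrophage-like cells ABT-317 without CPI could be compared with its vehicle, both given isotype antibodies. Il1b was at 1591 and 1894 CPM with isotype and 1396 and 1751 CPM with isotype + ABT-317, and Tnf at 739 and 940 CPM and 614 and 801 CPM. Il1a was at 155 and 180 CPM and 220 and 282 CPM, so that both ABT-317 sums were higher. None of 7 members tested passed, and 0% of the 8321 genes tested did, although 424 genes had an unadjusted p under 0.05 and DESeq2 called 18 genes. The largest fold changes were those of Il1a (log2, 0.55 ± 0.16 SE, adjusted p = 0.66) and Tnf (-0.28 ± 0.17, adjusted p = 1.00). With the reaction as a block, 101 genes passed, and Il1a (0.55 ± 0.11, adjusted p = 0.011) and Tnf (-0.28 ± 0.07, adjusted p = 0.038) were among them. Il1b (-0.19 ± 0.15), Osm (-0.12 ± 0.16), Il18 (-0.26 ± 0.24), Il1rn (0.13 ± 0.14), and Il18bp (0.19 ± 0.27) passed in neither fit.

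With ABT-317 in both arms, Il18bp was higher with CPI in macrophage-like cells, and the call for the other antagonist gene, Il1rn, depended on the fit. Il18bp was at 36.1 and 34.1 CPM with isotype + ABT-317 and 64.3 and 104 CPM with CPI + ABT-317 (log2 fold change 1.33 ± 0.28 SE, adjusted p = 0.045). Il1rn was at 254 and 292 CPM and 451 and 377 CPM (0.62 ± 0.14), which did not pass without a block (adjusted p = 0.070) and passed with the reaction as a block (0.61 ± 0.10, adjusted p = 0.00048). It passed in 9 of 17 alternatives in all, DESeq2 (0.62, adjusted p = 0.0185) and the fits without isotype replicate 1 (adjusted p = 0.0307) or 2 (adjusted p = 0.0374) among them. Thus 1 of 7 members tested was higher, where 1.06% of genes were. The agonists were close to each other in both arms, with Il1b at 1396 and 1751 CPM and 1477 and 1497 CPM (-0.06 ± 0.16), Tnf at 614 and 801 CPM and 640 and 665 CPM (-0.09 ± 0.18), Osm at 131 and 159 CPM and 137 and 162 CPM (0.08 ± 0.17), and Il1a at 220 and 282 CPM and 228 and 182 CPM (-0.28 ± 0.18). Il18 was at 15.7 and 19.3 CPM and 22.9 and 19.4 CPM (0.28 ± 0.29). The Il18bp call rested on each of 3 sums. Its fold change was 0.87 without CPI + ABT-317 replicate 2, and 1.35 and 1.31 without isotype + ABT-317 replicates 1 and 2. The Il18bp call was also lost with barcodes thinned to 1000 UMIs (1.66, adjusted p = 0.17), where Il1rn was the member that passed (0.96, adjusted p = 0.021).

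The sub-clusters of macrophage-like cells were in different proportions in these arms. The Cxcl9 and C1qa sub-cluster was the largest in both, with 47.7% and 36.2% of isotype + ABT-317 and 28.4% and 32.4% of CPI + ABT-317 barcodes. Within it, Il1rn was at 51.8 and 79.4 CPM and 249 and 172 CPM, and Il18bp at 17.3 and 43.7 CPM and 64.5 and 170 CPM. Il1rn also separated the arms in the Stmn1 and Birc5 sub-cluster (180 and 145 against 320 and 264 CPM) and in the Hmox1 and Mmp12 sub-cluster (362 and 415 against 626 and 705 CPM), but not in the Cxcl1 and Cd14 sub-cluster (607 and 565 against 598 and 448 CPM). In the last, Tnf was at 1167 and 1531 CPM and 716 and 753 CPM, and Il1b at 2842 and 3777 CPM and 2279 and 2193 CPM. These levels within sub-clusters were not tested. The share of all genes whose sums separated the arms in a sub-cluster was not counted, so the separation does not set Il1rn apart from other genes.

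**Figure D4:**
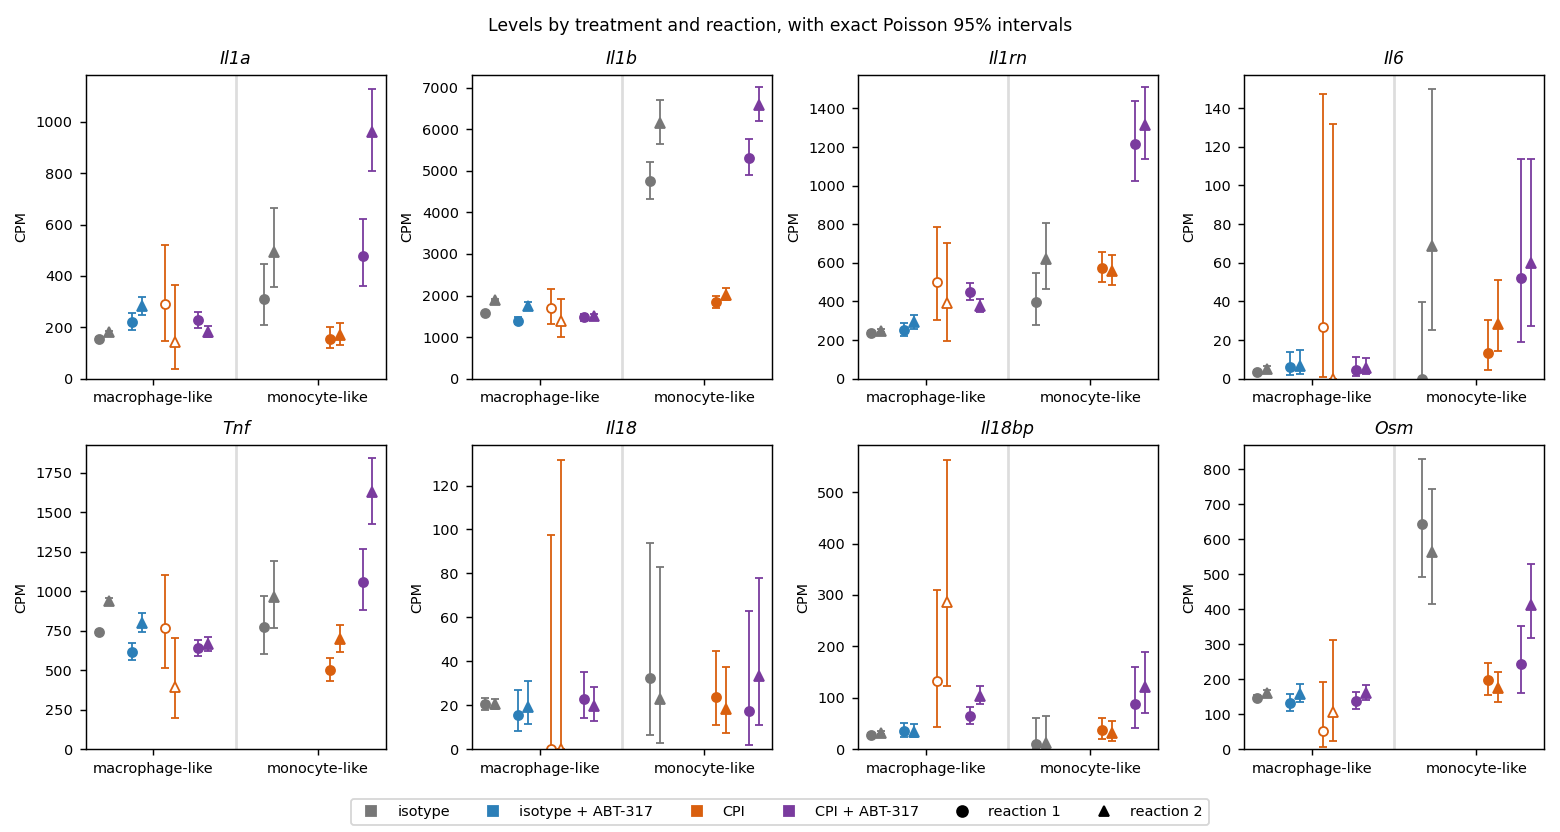
Level in CPM of each gene in macrophage-like and monocyte-like cells by treatment (color) and reaction (circle or triangle), with exact Poisson 95% intervals that cover counting error only. Open symbols are macrophage-like CPI sums of 15 and 12 barcodes, and the monocyte-like isotype + ABT-317 sums of 2 barcodes are not drawn. In monocyte-like cells the orange CPI points of Il1b, at 1839 and 2024 CPM, lie below all gray isotype and purple CPI + ABT-317 points.

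The macrophage-like CPI sums held 15 and 12 barcodes, so these sums can show large differences only. On simulated counts of this size, edgeR found 18.5% of the genes changed 4-fold. Il18bp was at 132 CPM (43.0 to 309) and 286 CPM (123 to 563) from 5 and 8 UMIs, against 27.4 and 32.3 CPM with isotype. Il1b was at 1695 and 1394 CPM, Tnf at 768 and 393 CPM, Il1rn at 503 and 393 CPM, and Il18 at 0 UMIs in both, which allows up to 79.4 and 107 CPM. In the fits on sums of at least 10 barcodes the median of all genes moved by -0.44 (CPI against isotype), 0.43 (CPI + ABT-317 against CPI), and 0.48 (the difference between the ABT-317 effects), so small fold changes cannot be read there. Against isotype, 0 of 7 members and 0.885% of 7907 genes passed (933 genes at an unadjusted p under 0.05), with log2 fold changes of 2.30 ± 0.57 (SE) for Il18bp (adjusted p = 0.054), -0.59 ± 0.22 for Il1b, and -0.90 ± 0.30 for Tnf. With the reaction as a block these 3 passed (2.33 ± 0.55, -0.56 ± 0.15, and -0.87 ± 0.22, adjusted p = 0.0013, 0.0068, and 0.0035). Il18bp also passed without any single sum outside the CPI arm. Tnf passed without isotype replicate 1 (-1.20) or any single sum of the ABT-317 arms, and Il1b without isotype replicate 1 (-0.85). Osm (-1.44 ± 0.55), Il1rn (0.48 ± 0.30), and Il1a (0.02 ± 0.42) did not pass in either fit. Between CPI + ABT-317 and CPI, 0 members and 0.304% of genes passed (835 unadjusted), and the block also gave 0 members, with 183 genes. The fold changes there were 1.39 ± 0.56 for Osm, 0.52 ± 0.31 for Tnf, 0.34 ± 0.22 for Il1b, 0.26 ± 0.29 for Il1rn, 0.24 ± 0.42 for Il1a, and -0.79 ± 0.51 for Il18bp. No fold change is given for Il18, which had no UMI in either CPI sum. The effect of ABT-317 under CPI minus that under isotype passed for 0 members and 0.0506% of genes (776 unadjusted), and with the block Tnf passed (0.77 ± 0.24, adjusted p = 0.045). Without the block Tnf was at 0.81 ± 0.36, Osm at 1.52 ± 0.59, Il1b at 0.53 ± 0.28, Il1rn at 0.14 ± 0.33, Il1a at -0.30 ± 0.47, and Il18bp at -0.97 ± 0.58.

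Genes of the same pathways were read from 5 lists. Of the 2313 genes tested in monocyte-like cells, 133 were higher and 116 (5.02%) were lower with CPI than with isotype. With CPI + ABT-317, 7.13% were higher than with CPI. Among 13 tested inflammatory targets of NF-kB, the transcription factor that IL-1 and TNF receptors activate, 6 were lower and 1 was higher in monocyte-like cells with CPI than with isotype. The chemokine genes Ccl3 (log2 fold change -1.68 ± 0.28 SE, adjusted p = 0.0018) and Ccl4 (-1.43 ± 0.29) and Acod1, which makes itaconate (-1.52 ± 0.32), were lower. The adhesion gene Icam1 was higher (1.71 ± 0.50, adjusted p = 0.043). With CPI + ABT-317 against CPI, 5 of the 13 were higher and none lower, led by Nos2, the inducible nitric oxide synthase (3.43 ± 0.34, adjusted p = 2.3e-05), Acod1 (1.79 ± 0.31), and Ccl3 (1.30 ± 0.27). The median fold change of the list was 0.15 and 0.79 in the 2 comparisons, against -0.01 over all genes in each, so the median of the first comparison lay above 0 although more of its calls were lower than higher. These 2 comparisons share the CPI sums. The class differed in its markers between the arms, as given above, and the lists were not read separately in barcodes with a Ly6c2 UMI. The part of this makeup in the list genes was not tested.

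Of 13 tested genes of NF-kB signaling and its feedback, Tnfaip3, which encodes the inhibitor A20, was higher with CPI than with isotype (0.88 ± 0.24). Nfkbia, the inhibitor IkBα (-0.75 ± 0.23), and Tnip3 (-1.32 ± 0.36) were lower. With CPI + ABT-317, Nfkbia (0.75 ± 0.23) and Tnip3 (1.36 ± 0.33) were higher than with CPI and none was lower. Among 3 tested receptor genes, Il1r2, the decoy receptor of IL-1, was higher with CPI + ABT-317 than with CPI (2.60 ± 0.52, adjusted p = 0.0051). Of 5 inflammasome genes, Pycard, the inflammasome adaptor ASC, was lower with CPI than with isotype (-1.26 ± 0.32), and none passed between CPI + ABT-317 and CPI. These lists, too, were read in all barcodes of the monocyte-like class, whose markers differed between the arms.

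In macrophage-like cells no gene of these lists passed for ABT-317 without CPI. Between CPI + ABT-317 and isotype + ABT-317, 1.06% of the 8321 genes tested were higher. Of 15 NF-kB targets 3 were higher, Nos2 (2.26 ± 0.21, adjusted p = 0.00078), Ier3 (0.99 ± 0.17), and Sod2 (0.90 ± 0.19). Nlrp3, the sensor of the inflammasome that activates caspase-1, was higher too (0.76 ± 0.15, adjusted p = 0.028). No gene of the lists was lower. In the sums of at least 10 barcodes, Acod1 was higher with CPI + ABT-317 than with CPI (1.49 ± 0.31, adjusted p = 0.040), where 0.304% of all genes passed in either direction.

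Between classes the NF-kB targets also differed. Of all genes tested against macrophage-like cells, 7.97% were higher in monocyte-like and 11.5% in neutrophil-like cells. In cDC2-like cells 23.9% passed in either direction. In monocyte-like against macrophage-like cells 12 of 15 tested were higher and none lower, with Il23a (2.91 ± 0.71), Cxcl3 (2.64 ± 0.21), and Ptgs2, the cyclooxygenase COX-2 (1.93 ± 0.14), ahead, and their median was 1.23. Nlrp3 (1.05 ± 0.16) and Mefv, which encodes pyrin (2.69 ± 0.46), were higher among 13 inflammasome genes. In cDC2-like cells 10 of the 15 targets were lower and none higher (median -2.01), while Il1r2 (5.17 ± 0.24) and Ltb, which encodes lymphotoxin β (7.24 ± 0.57), were higher. Neutrophil-like cells had 9 of 12 targets higher (median 1.76), led by Cxcl3, a chemokine gene (5.66 ± 0.35), and all 3 tested receptor genes higher, with Il1rap, the IL-1 receptor accessory protein (4.76 ± 0.55), and Il1r2 (3.80 ± 0.36) ahead, and Il36g, an IL-1 family ligand gene, higher by 8.86 ± 0.78. Nlrp3 was higher there too (1.85 ± 0.24), and Pycard was lower (-1.63 ± 0.42).

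The genes whose levels were most like those of each member were taken by Pearson's r of log2(CPM + 1) over 46 sums of 10 classes and 11930 genes. Sums of a class share their cell type, and sums of a reaction share a library, so the r values are descriptions. Tnf was most like Ccl4 (0.98), Ccl3 (0.97), and Rgs1 (0.96), and Il1b was most like Tyrobp (0.97), Nlrp3 (0.97), and Plek (0.96). Il1rn was most like C5ar1 (0.96), Cxcl2 (0.96), and Cd14 (0.95), Il1a like Clec4e (0.92), Ehd1 (0.92), and Ccl9 (0.91), and Osm like Cyp4f18 (0.92) and Clec4e (0.92). The values were lower for Il18 with Ang (0.85), Anpep (0.83), and Ifi205 (0.78), for Il18bp with A930007I19Rik (0.76), Cd40 (0.75), and Pstpip2 (0.74), and for Il6 with Errfi1 (0.72), Rbpms (0.71), and Lpl (0.68). Among the members themselves, Il1b and Tnf had an r of 0.94 and Il1b and Il1rn one of 0.92, whereas Il6 had 0.12 with Il1b and 0.06 with Tnf.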

How the data were processed

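Per the study's methods, tumor cells were prepared with a 5′ droplet kit and hashtag antibodies. The authors deposited, for each of the 2 MC38 reactions, UMI counts per gene and barcode with no normalization. The submitters' processing notes name Cell Ranger 3.1.0 and the builds GRCm38 and mm10, while the matrix headers name Cell Ranger 8.0.1, so gene positions are not given from the matrices. A deposited key names the hashtag of each treatment.

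For each hashtag, a mixture of 2 normal distributions was fitted to log counts. Barcodes with exactly 1 hashtag at a posterior of 0.5 or more were kept. This left out 19662 of 37774 and 10463 of 27582 barcodes, with none or several hashtags. Whether those with several were doublets was not tested, and the isotype hashtag was called in 70.4% and 60.7% of barcodes. The 2 fitted means lay closest for the CPI hashtag (2.93 and 4.01 in reaction 1, 2.41 and 3.63 in reaction 2), and treatments rest on these calls. Barcodes needed at least 200 genes and under 10% mitochondrial counts. The study's limit of 2500 genes was an alternative, because it keeps 92.7% and 87.3% of CPI but 20.2% and 16.8% of CPI + ABT-317 barcodes. Clusters came from the Leiden algorithm (leidenalg 0.10.2, resolution 0.5) on 30 principal components of 2000 variable genes, and myeloid clusters were clustered again. Members, pathway genes, mitochondrial, and ribosomal genes were kept out. Clusters were named from 14 marker lists, and the ending "-like" marks that no protein was measured for a name.

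Counts were summed per class, treatment, and reaction, and tested in edgeR 4.0.16 (R 4.3.3, TMM, filterByExpr, quasi-likelihood test, Benjamini-Hochberg), with DESeq2 1.42.0 as an alternative. The plan asked for classes with 20 barcodes in each of the 8 sums, which no class met. Each comparison was therefore run where both sums of both arms held 20, and, as a choice made after seeing the data, in sums of at least 10 for the macrophage-like CPI and the neutrophil-like comparisons. On simulated counts with 200 genes changed 4-fold, edgeR found 89.5% in macrophage-like cells (ABT-317 against vehicle), 85.5% in monocyte-like cells (CPI against isotype), and 18.5% in macrophage-like cells with sums of 10 (CPI against isotype). The cells of a reaction share a library, and deviations from the treatment means correlated within reactions (r of 0.22 to 0.44 in macrophage-like and 0.07 to 0.21 in monocyte-like cells), so values with the reaction as a replicate block are given where they change a call. Leaving out a replicate leaves an arm with 1 sum, which is assumed to vary like the other arms.

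The members tested are named in each comparison, with no fold change where an arm held no UMI. Of the pathway lists, genes past the threshold are named, at most 3 per direction and list, by the size of the fold change. For each member, the 3 genes with the highest correlation are named, among genes with at least 10 CPM in a class, and 1 of them is not reported here. The members and lists were chosen with earlier results of these data known. Depth ran from 27979 to 14877901 UMIs in the macrophage-like sums and from 87116 to 385778 in the monocyte-like sums used. Intervals (95%) are exact Poisson for levels and cover counting error only. A count of 0 was given a limit of 3 counts.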

Additional observations from a re-analysis of the deposited data

How the results depend on the processing

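Alternatives chosen after seeing the data are the sums of at least 10 barcodes, the hashtag lead over its background, and the split by Ly6c2. Genes past the threshold are given first, followed by members where their number moved by over 1.5 times or, with a replicate left out or a block, where it changed at all. In monocyte-like cells, CPI + ABT-317 against CPI (262 genes, 5 members) gave 117 genes in DESeq2, 508 with a hashtag lead of 1 log unit, 82 with thinned barcodes, 144 without a Ly6c2 UMI, 8 genes and 0 members with one (where Il1rn, at -0.0095, and Tnf, at -0.65, turned), and 134 to 259 genes and 3 to 5 members with a replicate left out. CPI against isotype (249 genes, 3 members) gave 123 genes in DESeq2, 112 with thinned barcodes (Il1a turned, at 0.14), 39 genes and 1 member with a Ly6c2 UMI (Il1a turned, at 0.61), and 68 to 344 genes and 2 to 3 members with a replicate left out. With a hashtag lead of 1 log unit this comparison could not be fitted, since an isotype sum held under 10 barcodes.

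In macrophage-like cells, ABT-317 against vehicle (0 genes, 0 members) gave 18 genes in DESeq2, 2 with the hashtag lead over background, 39 with no low-count filter, 3 in sums of at least 10 barcodes, and 0 to 14 with a replicate left out. CPI + ABT-317 against isotype + ABT-317 (107 genes, 1 member) gave 2 members in DESeq2, with the study's filter, in sums of at least 10 barcodes, and without doublet-like barcodes, 248 genes and 2 members with no low-count filter, 38 genes with thinned barcodes, and 8 to 197 genes and 0 to 2 members with a replicate left out.

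In macrophage-like sums of at least 10 barcodes, CPI against isotype (70 genes, 0 members) gave 144 genes in DESeq2, 163 genes and 2 members at a Leiden resolution of 1, 3 genes with a hashtag lead of 1 log unit and 24 over background, 29 genes and 1 member with library sizes alone, 246 genes and 3 members with no low-count filter, 112 genes with thinned barcodes, 119 genes and 1 member without doublet-like barcodes, and 0 to 219 genes and 0 to 3 members with a replicate left out. CPI + ABT-317 against CPI (24 genes) gave 76, 46, 3, 6, 13, 129, and 48 genes under DESeq2, the Leiden resolution, both hashtag rules, library sizes, no filter, and thinning, and 4 to 132 with a replicate left out. The difference between ABT-317 effects (4 genes) gave 61, 9, 1, 2, 2, 103, and 15 in the same order, 8 without doublet-like barcodes, and 0 to 90 with a replicate left out.

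Between classes, monocyte-like against macrophage-like (595 genes, 6 members) gave 333 genes with a hashtag lead of 1 log unit, 311 in sums of at least 10 barcodes, 226 with thinned barcodes, and 215 to 280 genes and 4 to 5 members with a replicate left out. cDC2-like (1082 genes) gave 589 in sums of at least 10 barcodes and 453 with thinned barcodes. Neutrophil-like (445 genes, 3 members) gave 271 genes and 1 member with a hashtag lead of 1 log unit, 167 genes over background, 1027 with no low-count filter, and 119 to 259 genes and 1 to 3 members with a replicate left out. No cDC2-like fit with a replicate left out and no thinned neutrophil-like fit could be made.

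With the reaction as a replicate block, genes past the threshold in monocyte-like cells numbered 427 (CPI + ABT-317 against CPI, 6 members) and 400 (CPI against isotype). In macrophage-like cells they numbered 101 with 2 members (ABT-317 against vehicle), 463 with 2 members (CPI + ABT-317 against isotype + ABT-317), 278 with 3 members (CPI against isotype), 183 (CPI + ABT-317 against CPI), and 205 with 1 member (the difference between effects). The block changed no member's call beyond those given above.

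Alternatives that use fewer barcodes, sums, or UMIs also have less power, and the cause of the other changes was not tested. Over 72 levels of members in classes, 55 moved by less than 1 SD over sums when barcodes were thinned to 1000 UMIs. Depth limits Il6, Il18, and Il18bp, which had few UMIs in most sums.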

Other observations

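The 33 mreg DC–like barcodes, whose sums were all under 20 barcodes, held Il1b at 603 CPM (466 to 767), Tnf at 292 CPM (200.0 to 413), Il1rn at 128 CPM (69.9 to 215), and Osm at 64.0 CPM (25.7 to 132). Their Il6 level was 36.5 CPM (9.96 to 93.6) from 4 UMIs, and Il1a had no UMI.

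In the 1522 unnamed myeloid barcodes, Il1b was at 1451 CPM (1405 to 1497), Tnf at 705 CPM (674 to 738), and Il1a at 195 CPM (179 to 213). Over 7 sums, Il1b ran from 674 to 1616 CPM (median 1422).

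In the Rgs5 cluster of fibroblast or pericyte-like cells, Il6 was at 13.6 to 101 CPM over 3 sums (median 87.0), while Il18 was at 4.87 CPM from 4 UMIs. In the Col1a1 cluster, Il18 was at 39.3 CPM and Il6 at 26.9 CPM over all barcodes, but over its 7 sums the median was 13.1 CPM for Il18 and 26.0 CPM for Il6. These differences were not tested.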
